A study of Caenorhabditis elegans with 4 samples.

Results

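EFL-1 is an E2F-family transcription factor of the nematode Caenorhabditis elegans, and the sites described here are weak autosomal positions with a peak in both of 2 ChIP libraries for an EFL-1::GFP fusion, away from every peak of the combined list. They were chosen by rule from the peak lists of the replicates, numbered 2 and 3 in the labels. A replicate 3 peak was eligible when it lay on an autosome, carried a peak number of at most 10000 and was over 1000 bp, edge to edge, from every combined peak (2189 on autosomes and 143 on X). It became a member when it overlapped, by at least 1 bp, a replicate 2 peak also numbered at most 10000. Of the 30000 peaks of replicate 3, 8713 were autosomal within that number, 5802 were eligible and 783 were members, which is 13.5% of the eligible peaks (95% exact Clopper-Pearson interval 12.6 to 14.4%). Without the distance limit, 33.2% of the 8713 peaks had such a partner. The remaining 5019 eligible peaks had no such partner and serve as the comparison below.

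E2F proteins bind DNA as dimers with a DP partner and act with pocket proteins of the retinoblastoma family, and they are known for regulating cell cycle genes in many animals. In C. elegans, efl-1 works with dpl-1 and lin-35 and is needed in the germline and the early embryo. The intestine is the digestive and fat-storing tissue of the worm, and its cells replicate their DNA repeatedly during larval growth.

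The worms were fed L1 hermaphrodites of strain YL418, raised at 20 °C on HB101 bacteria and fixed in 2% formaldehyde. The strain carries unc-119(ed3) III and the transgene vrIs65, in which the ges-1 promoter drives EFL-1::GFP with a FLAG tag and the efl-1 3'-UTR in the intestine, together with wild-type unc-119. Per the labels it was not outcrossed, and the labels do not mention a change to the endogenous efl-1 gene. Chromatin was precipitated with goat antibodies against GFP in 2 ChIP libraries, and 2 Input libraries share their numbers. Since the fusion comes from a transgene under an intestinal promoter, its sites need not be those of the native protein, and the labelled tissue could not be checked with markers in lists of peak positions. No precipitation from worms without the fusion was analysed, so tagged protein and open chromatin cannot be told apart at any of these sites. The labels do not say that the replicates came from separate cultures, so their spread may be technical.

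Coordinates are on WormBase WS220. Every peak has a deposited score, whose definition the file headers do not give, and a number in its name that broadly rises as the score falls, though not at each step. The number is used here as a rank, with 1 the best. Scores are read only within 1 list, and a number states a position in its own list of 30000. Each replicate list ends at 30000 peaks, and sequencing depth is unknown. Genes and sequences are not given because no annotation or genome of WS220 was used here.

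Most members were weak by rank. In replicate 3 their numbers ran from 1638 to 9988 with a median of 5162, and the numbers of their partners in replicate 2 ran from 1177 to 9964 with a median of 5027. Both ranges follow from the rule, which caps the number and removes the surroundings of the combined sites. The member scores had a median of 1.02 in replicate 3, where the highest score of the list is 3.66, and the partner scores had a median of 0.85 in replicate 2, where the highest is 2.97. Most members were thus far below the top of both lists: 637 of 783 (81.4%, interval 78.4 to 84.0%) had, in both replicates, numbers above the size of the combined list. The label weak did not hold for all of them. Numbers within that size were carried by 29 members in replicate 3 and by the partners of 120 members in replicate 2. In replicate 3, 26 members carried the highest score, which 2299 peaks of that list share, and 8 members had a partner at the highest score of replicate 2, which 1390 peaks share. A single member had the highest score in both.

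The overlap of both replicates is given by the rule, but their ranks at these sites showed almost no relation. Across the 783 members the number in replicate 3 and the number of the partner in replicate 2 had a Spearman coefficient of 0.016. The coefficient was between -0.039 on chromosome IV and 0.065 on chromosome I when each autosome was taken alone. For comparison, 1972 autosomal combined sites with an overlapping pair of peaks in the same number range had a coefficient of 0.84. Among the 474 of these with a number above the size of the combined list in at least 1 replicate, it was -0.58. Every site with both numbers within that size is left out there, which by itself lowers the coefficient. The value thus does not show how weaker combined sites agree in rank. These comparisons are descriptions only, because the rule removes sites near combined peaks and so cuts the range of both numbers, and the pairs share 2 libraries. Of the 247 members numbered up to 4000 in replicate 3, 101 had a partner numbered up to 4000 and 35 a partner numbered above 8000. Of the 146 members numbered above 8000, 52 had a partner numbered up to 4000 and 29 a partner numbered above 8000. Both groups thus had partners over the whole range of ranks in replicate 2.

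**Figure D1:**
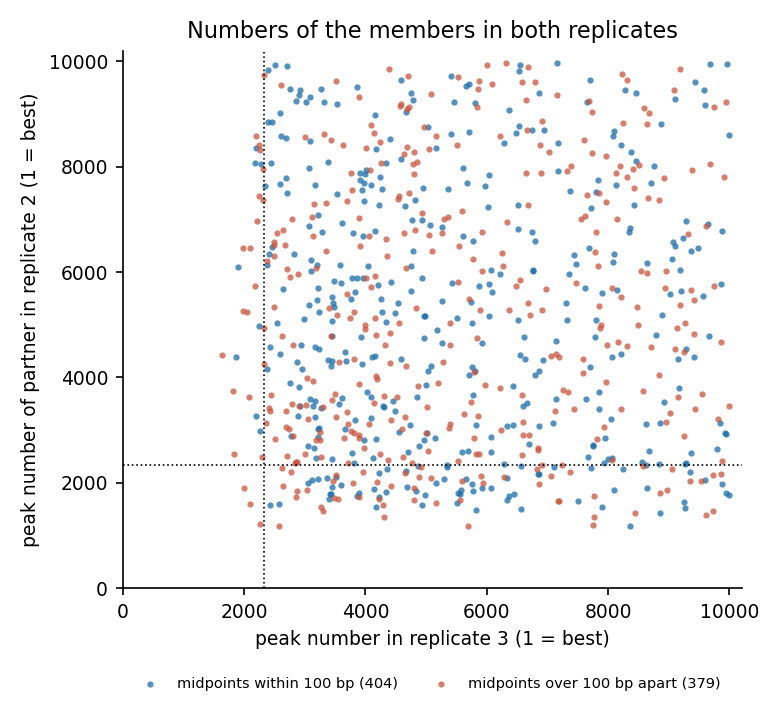
Peak number of each of the 783 members in replicate 3 (x axis) against the number of its partner in replicate 2 (y axis), with 1 the best, coloured by whether the midpoints lie within 100 bp (404 members) or farther apart (379). Dotted lines mark the size of the combined list. Above both lines lie 637 of the members, and the points show no diagonal.

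Most of the 15 members with the lowest sums of both numbers, 3 on each autosome, were pairs of peaks with midpoints well apart. The lowest sum of both numbers belonged to a member on chromosome I, with number 2260 in replicate 3 and 1220 in replicate 2, the highest score in both and midpoints 127 bp apart. On chromosome III, the site at 640503 to 640782 had number 2093 and the highest score, 3.66, in replicate 3. Its partner at 640341 to 640644 had number 1590 and score 2.33 in replicate 2. The midpoints were 150 bp apart, and the nearest combined site was 104991 bp away. This site and another on the same chromosome were 2 of only 3 members whose numbers in both replicates were within the size of the combined list, and the third was that on chromosome I. The other, at 950540 to 950819 on chromosome III, had number 2000 and score 3.66 in replicate 3, against number 1894 and score 1.82 in replicate 2. Its midpoints were 179 bp apart, and a combined site lay 1366 bp away. The next on chromosome III, at 1429954 to 1430233, had numbers 2632 and 2287, with midpoints 202 bp apart. The 3 sites on chromosome III thus had replicate peaks shifted by at least 150 bp.

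The same held on chromosomes II and IV. The leading member on chromosome II lay at 10549258 to 10549537, with number 2863 in replicate 3 and 1731 in replicate 2 and midpoints 157 bp apart. It was followed by the site at 4047855 to 4048134, with numbers 3044 and 1868 and midpoints 242 bp apart, and by that at 9177103 to 9177382, with numbers 3475 and 1706 and an offset of 188 bp. In each of these 3 sites the number was lower in the list of replicate 2. On chromosome IV the site at 5089709 to 5089988 had numbers 2870 and 1845 and an offset of 221 bp. The site at 6910085 to 6910364 had numbers 3300 and 1458 with an offset of 217 bp, and the site at 12032349 to 12032628 had numbers 2295 and 2484 with an offset of 160 bp. The last of these carried the highest score of replicate 3, where the score of its partner in replicate 2 was 1.45.

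On chromosome V the leading member, at 7465602 to 7465881, had number 2435 and score 3.21 in replicate 3, and number 1572 and score 2.46 in replicate 2, with midpoints only 56 bp apart. It lay 109694 bp from the nearest combined site. The other leading sites on this chromosome were at 13909500 to 13909779, with numbers 3275 and 1541 and an offset of 186 bp, and at 4131585 to 4131864, with numbers 2781 and 2214 and an offset of 160 bp. Among the 3 members of lowest sum on chromosome I, 1 had midpoints 72 bp apart. Of the 15 members with the lowest sums, 3 on each autosome, 2 had midpoints within 100 bp. Among all 61 members with a sum of numbers up to 6000, 23 had (37.7%, interval 25.6 to 51.0%), against 404 of all 783 (51.6%, 48.0 to 55.1%). These shares are descriptions, since number, overlap and distance from combined sites were all part of the rule.

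Across all members the paired peaks were less well aligned than at combined sites. Every member was 280 bp wide and every partner 304 bp, the fixed widths of their lists. Peaks thus overlap when their midpoints lie under 292 bp apart. The median distance between midpoints was 96 bp (quartiles 38 and 172 bp) for members, and 20 bp (8 and 46 bp) for the 1972 autosomal combined sites. Midpoints lay within 50 bp at 238 members (30.4%, interval 27.2 to 33.8%) and at 76.6% of the combined sites (74.7 to 78.5%). At the other end, 45 members (5.75%) had midpoints at least 250 bp apart. The signed offset, replicate 2 minus replicate 3, had a median of 9 bp, close to 0. The share of members with midpoints within 100 bp was much the same at all ranks in replicate 3, at 51.8% up to number 4000, 50.9% above 4000 and up to 6000, 51.9% up to 8000 and 52.1% above 8000.

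The distances of all pairs, overlapping or not, show how far this alignment stands above its surroundings. Between the 5802 eligible peaks and the replicate 2 peaks numbered up to 10000, 239 pairs of midpoints were under 50 bp apart. The count per 50 bp fell to 163, 128, 121 and 92 in the next 4 bins and was 53 from 250 to 300 bp. From 300 to 1200 bp it averaged 59.7 per 50 bp, so the first bin held 4.01 times that level and the bin from 200 to 250 bp 1.54 times. At that outer level, the 292 bp within which peaks can overlap would hold 348 pairs, against the 783 members. Of the members, 778 had 1 partner and 5 had 2. Overlap made these sites members by rule, and the outer range was set after the profile was seen. The counts are thus a description with no test, and they say nothing about single members. From 1250 bp the count rose again, to between 68 and 96 per 50 bp, at the distance from which the rule lets combined sites come near.

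**Figure D2:**
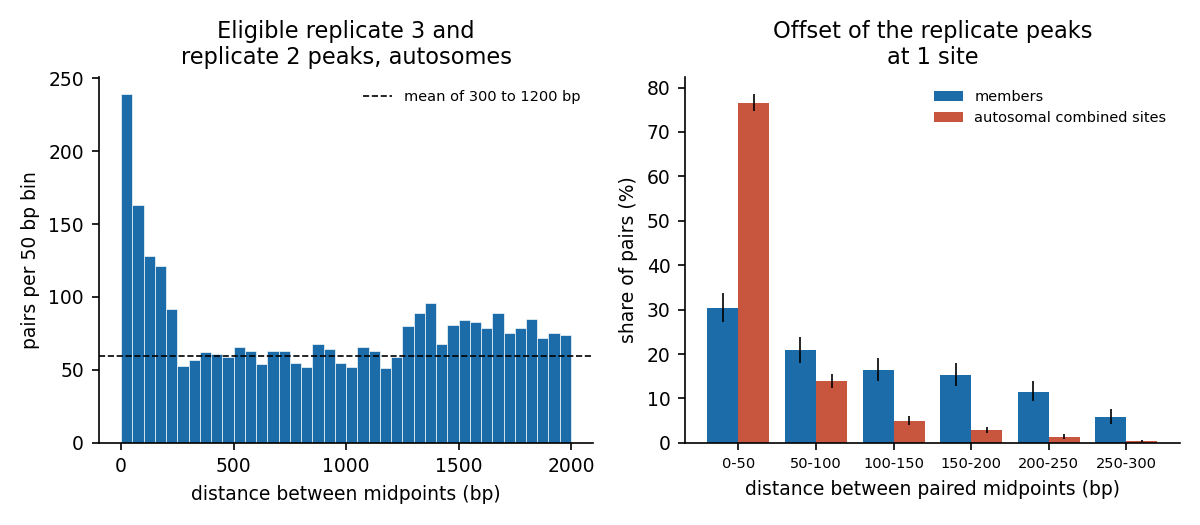
Left, number of pairs of an eligible autosomal replicate 3 peak and a replicate 2 peak per 50 bp of distance between midpoints, with the mean from 300 to 1200 bp (59.7) as a dashed line; the first bin reaches 239. Right, share of the 783 members and of the 1972 autosomal combined sites in each 50 bp class of midpoint distance, with 95% exact intervals; 30.4% of members and 76.6% of combined sites are in the first class.

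Some members stood for the same position. The 783 members used 766 replicate 2 peaks as their best partner, and 17 of those peaks were each shared by 2 members. In 13 of the 17 cases the members lay on opposite sides of the partner's midpoint, and the median offset of these 34 members was 191 bp. On chromosome IV, the replicate 2 peak at 5089918 to 5090221, number 1845, overlapped the member at 5089709 to 5089988 named above and a second one at 5089920 to 5090199, number 4840. The second was 10 bp from the partner's midpoint and is also the member second closest to a combined site, at 1006 bp. On chromosome III the replicate 2 peak at 5230003 to 5230306, number 1348 with the highest score of its list, overlapped members at 5229875 to 5230154, number 4307, and at 5230263 to 5230542, number 7774. Replicate 3 thus had a pair of peaks where replicate 2 had 1. In all, 20 members overlapped another member, and merging them left 773 separate stretches.

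Peaks near the top of one list could be far down the other. In replicate 3 the best-numbered member on chromosomes II to V was at 6280130 to 6280409 on chromosome III, with number 1638 and score 3.66, and its partner had number 4422 and score 0.92. The next was at 3391059 to 3391338 on chromosome V, with numbers 1817 and 3734. The reverse was seen on chromosome V at 9212518 to 9212797, where the replicate 2 peak had number 1186 and score 2.97, and the replicate 3 peak number 8363 and score 0.61. Its midpoints were 52 bp apart. At 11802449 to 11802728 on the same chromosome the numbers were 1205 in replicate 2 and 7745 in replicate 3. Over all members, 353 had the lower number in the list of replicate 3 and 430 in that of replicate 2.

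The rule's limits divided peaks with nearly equal values, given here for chromosomes II to V. The highest replicate 3 numbers inside were 9988, on chromosome IV at 282064 to 282343, and 9987, on chromosome II at 6682185 to 6682464; the first peaks outside with a partner had 10114 and 10177. In replicate 2 the last partners inside had 9964 and 9959, on chromosome IV, and the first outside 10006 and 10020. The member closest to a combined site lay 1001 bp from it, on chromosome V at 13082627 to 13082906, and pairs at 999 bp and 998 bp were left out. The shortest overlaps were 2 bp, on chromosome V at 8613161 to 8613440, and 4 bp, on chromosome IV at 5601438 to 5601717. The nearest peaks without overlap were separated from a replicate 2 peak by a single base.

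Eligible peaks of better rank had a partner more often. Of the eligible peaks numbered above the size of the combined list and up to 4000 in replicate 3, 218 of 1107 had a partner (19.7%, interval 17.4 to 22.2%). The share was 15.3% (13.5 to 17.3%) up to 6000, 10.6% (9.13 to 12.3%) up to 8000, and 9.55% (8.13 to 11.1%) above 8000. Between the first and the last of these classes the intervals did not overlap. The 157 eligible peaks numbered within the size of the combined list gave 18.5% with a wide interval, 12.7 to 25.4%. These shares describe the rule and carry no test. For reference, a 280 bp window placed at every position allowed by the distance rule overlapped a replicate 2 peak at 4.61% of the autosomal positions.

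**Figure D3:**
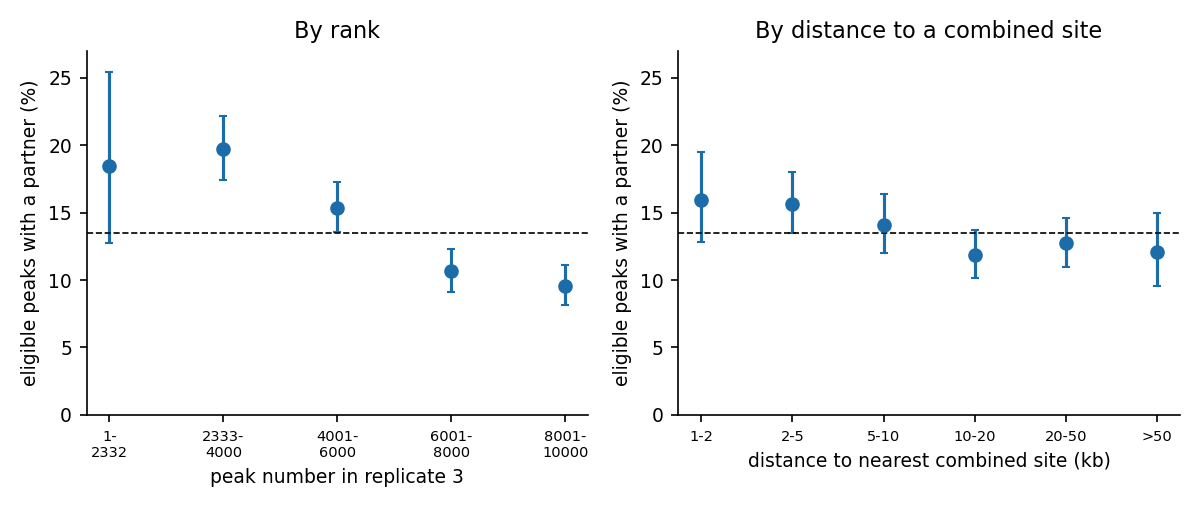
Share of eligible autosomal replicate 3 peaks with a replicate 2 partner, by peak number in replicate 3 (left) and by distance in kb from the nearest combined site (right), with 95% exact intervals and the overall 13.5% as a dashed line. The share declines from 19.7% at numbers up to 4000 to 9.55% above 8000, and from 15.96% at 1 to 2 kb to 12.1% beyond 50 kb.

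Members were spread over the 5 autosomes nearly as eligible peaks without a partner were. Chromosome IV held 170 members, chromosome III 168, chromosome V 151, and chromosomes I and II 147 each. Per Mb of chromosome, III was the densest with 12.2 (interval 10.6 to 13.9) and V the sparsest with 7.22 (6.20 to 8.32), while I, II and IV had 9.77, 9.62 and 9.72. The share of eligible peaks with a partner was 15.3% on III (13.2 to 17.6%), 14.9% on IV (12.9 to 17.1%), 13.4% on II (11.5 to 15.6%), 12.7% on I (10.8 to 14.7%) and 11.5% on V (9.82 to 13.4%). All 5 intervals overlapped. Against the eligible peaks without a partner, no autosome passed 0.05 in two-sided Fisher's exact tests with Benjamini-Hochberg adjustment over the 5. Chromosome V came nearest, with an odds ratio of 0.79 (exact test, p = 0.017, adjusted p = 0.084), followed by chromosome III with 1.20 (p = 0.0497, adjusted p = 0.12). On chromosome V the call depended on the setting and passed in 5 others. By Fisher's exact test it passed with midpoints within 100 bp (odds ratio 0.64, adjusted p = 0.0043), reciprocal overlap of 50% (0.70, adjusted p = 0.013) and replicate 2 peaks counted (0.73, adjusted p = 0.0057). By the same exact test it passed beyond 2000 bp from combined sites (0.77, adjusted p = 0.046) and beyond 5000 bp (0.73, adjusted p = 0.036). Chromosome III passed only with replicate 2 peaks counted (1.34, exact test, adjusted p = 0.0066). These tests, like those below, treat sites as independent, although neighbouring peaks are not.

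**Figure D4:**
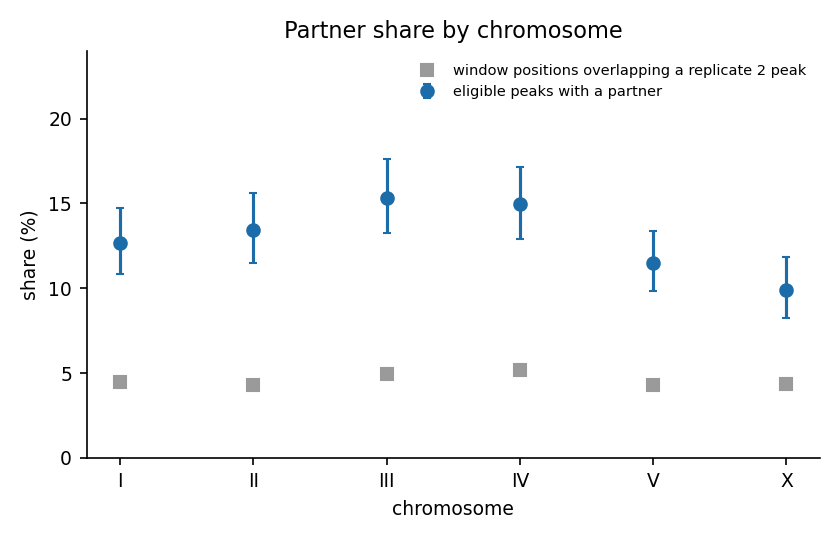
Share of eligible replicate 3 peaks with a replicate 2 partner on each chromosome (circles, 95% exact intervals) and share of all allowed positions of a 280 bp window that overlap a replicate 2 peak (squares). The circles run from 9.91% on X to 15.3% on III, and the squares from 4.27% on II to 5.16% on IV.

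On X the same rule gave 110 sites among 1110 eligible peaks, or 9.91% (8.22 to 11.8%), below the 13.5% of the autosomes (odds ratio of autosomes over X 1.42; two-sided Fisher's exact test, p = 0.00089, adjusted over 4 single comparisons p = 0.0018). Window positions overlapping a replicate 2 peak were 4.35% on X and 4.61% on the autosomes, and their part in the difference was not tested. With numbers up to 20000 the odds ratio was 1.05 and the difference no longer passed (Fisher's exact test, p = 0.38).

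Along the autosomes, members were more often in the central part, the middle one of 3 equal lengths, than eligible peaks without a partner. Of the 783 members, 334 (42.7%, interval 39.2 to 46.2%) had their midpoint there, against 1803 of the 5019 eligible peaks without a partner (35.9%, 34.6 to 37.3%). The odds ratio was 1.33 (two-sided Fisher's exact test, p = 0.00033, adjusted p = 0.0013). Of the positions allowed by the distance rule, 32.8% were central. No difference from the 41.2% of combined sites was detected (odds ratio 1.06, Fisher's exact test, p = 0.47, adjusted p = 0.47), which does not show that the shares are equal. The direction turned with numbers up to 20000 (0.92, exact test, p = 0.14), beyond 5000 bp (0.95, exact test, p = 0.63) and with all peaks, where the lower share of paired peaks passed (0.85, exact test, p = 0.0021). The central share of members was 47.7% on chromosome V (39.5 to 56.0%), 44.9% on I, 42.9% on II, 42.3% on III and 36.5% on IV (29.2 to 44.2%), and all 5 of these shares were above 33.3%. On every autosome, too, eligible peaks had a partner more often in the central part than outside it, from 14.0% against 9.90% on V to 16.4% against 14.2% on IV.

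The density of replicate 2 peaks moved with this result. A window at an allowed position overlapped a replicate 2 peak at 5.29% of central positions and 4.27% of outer ones, while eligible peaks had a partner in 15.6% and 12.3% of cases. The share for windows, too, was higher in the central part on every autosome, from 5.46% against 3.95% on I to 5.52% against 4.98% on IV. The part of this density in the central share was not tested. Alignment was alike in both parts within counting error: midpoints were within 100 bp at 52.4% of central members (46.9 to 57.9%) and 51.0% of outer ones (46.3 to 55.7%). With numbers up to 5000 in both replicates, which left 189 members, the central odds ratio was 1.29 and did not pass (Fisher's exact test, p = 0.11).

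**Figure D5:**
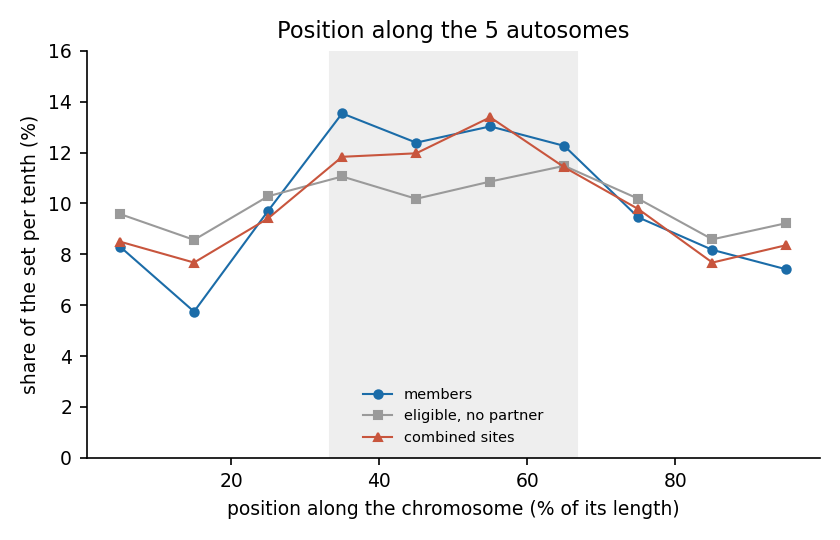
Share of the 783 members, of the 5019 eligible peaks without a partner and of the 2189 autosomal combined sites in each of 10 equal lengths of the chromosome, over 5 autosomes, with the central part shaded. Members run from 5.75% at 10 to 20% of the length to 13.5% at 30 to 40%, and eligible peaks without a partner from 8.57% to 11.5%.

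Both members and eligible peaks without a partner were over 1000 bp from combined sites by the rule, and beyond that limit members lay slightly closer. The median distance was 10393 bp (quartiles 4044 and 24591 bp) for members and 12296 bp for the others. Within 5 kb of a combined site were 238 members (30.4%, interval 27.2 to 33.8%) and 1273 of the others (25.4%, 24.2 to 26.6%), an odds ratio of 1.29 (two-sided Fisher's exact test, p = 0.0033, adjusted p = 0.0044). The rule set the same 1000 bp limit for both sets. The density of replicate 2 peaks by distance from combined sites was not compared, and its part in this difference was not tested. The difference did not pass among well-aligned pairs, where the odds ratio was 1.05 for midpoints within 100 bp (Fisher's exact test, p = 0.68) and 1.14 for reciprocal overlap of 50% (p = 0.22). Over the settings tried, the odds ratio ran from that 1.05 to 1.82 with replicate 2 peaks counted. Its size thus depended on the setting. Midpoints within 100 bp were found at 45.8% of members within 5 kb of a combined site (39.3 to 52.4%) and at 54.1% of those farther away (49.8 to 58.4%). Other members were far from any combined site. A distance of over 50 kb separated 72 members from the nearest one, and the farthest, on chromosome V at 3028274 to 3028553 with numbers 5039 and 8758, was 249722 bp away.

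Members lay farther apart than combined sites, which are more numerous. The median gap between neighbouring members was 61372 bp (quartiles 21438 and 132820 bp), and 155 of 783 (19.8%, 17.1 to 22.8%) had another member within 5 kb. Among the autosomal combined sites the median gap was 21282 bp and 37.5% had another such site within 5 kb. In 80 windows of 1 Mb the number of members ran from 2 to 21 with a median of 10. On chromosome III the window from 5000001 to 6000000 held 21 members, beside 53 combined sites. A window at another position on chromosome I also held 21 members, beside 44 combined sites. Windows with 18 members lay on chromosome II from 5000001 to 6000000, beside 39 combined sites, on III from 7000001 to 8000000, beside 47, and on IV from 5000001 to 6000000, beside 18. Windows rich in combined sites tended to hold more members, with a Spearman coefficient of 0.61. The coefficient with eligible peaks lacking a partner was 0.56. Both are descriptions over windows that share the same libraries.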

How the data were processed

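ChIP-seq peak lists of 2 replicates and 1 combined list were read. Per the file headers, coordinates are on WormBase WS220 and rows come from SPP peaks passed through IDR, a procedure ranking peaks by reproducibility. The deposited score of each peak is the authors' own and its definition, the aligner, versions, thresholds and the pooling behind the combined list are not stated there. Depth is unknown, so intervals cover counting error over sites only. No values of the Input libraries were used.

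Overlap, distances and shares were computed in Python 3.11.15 with pandas 2.3.3, numpy 2.4.6 and scipy 1.17.1, and figures were drawn with matplotlib 3.10.9. Chromosome length was the largest peak end in the 3 lists. Comparisons were two-sided Fisher's exact tests on counts of sites with Benjamini-Hochberg adjustment, over 5 autosomes and over 4 single comparisons, at 0.05. The functions were tested on simulated data. The alternatives were other overlaps, number limits, distances from combined sites, chromosome divisions, neighbour distances and the choice of replicate whose rows are counted. The members, comparisons and limits were chosen with earlier results of these data known, and the outer distance range of 300 to 1200 bp was set after the profile was seen. Named sites are the 3 per chromosome from II to V with the lowest sum of numbers, and those nearest each limit of the rule. The best-numbered peaks per replicate, those on chromosome I, the shared partners, the farthest site and the fullest windows were named after their values were seen. The planned comparisons of motifs and of positions relative to genes were not run, as the reference table is on another build.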

Additional observations from a re-analysis of the deposited data

How the results depend on the processing

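Of 102 results under the alternative settings named in the processing, 70 were counted as unchanged. For odds ratios this meant the same direction and side of 0.05, and for counts a value within 1.5 times. Spearman coefficients counted as unchanged stayed near the main value, whatever their sign. With each replicate 2 peak counted once, an alternative added after the data were seen, 10 of 11 were unchanged. The odds ratio of chromosome II moved from 0.99 to 1.02. The other values follow, as odds ratios unless named, and the cause was not tested beyond what fewer or more sites bring. The count of members was 508 with reciprocal overlap of 50%, 405 with midpoints within 100 bp, 189 with numbers up to 5000, 2594 up to 20000 and 5318 with all 30000 peaks. The Spearman coefficient between replicates was -0.066 with midpoints within 100 bp, -0.11 up to number 5000, 0.11 up to 20000 and 0.13 with all peaks. Its sign also turned from the main 0.016 with reciprocal overlap of 50% (-0.040) and beyond 5000 bp (-0.0081), both counted as unchanged. Reciprocal overlap gave 1.06 for chromosome I, 0.70 for V and 1.14 for the share within 5 kb. Midpoints within 100 bp gave 1.09 for I, 1.01 for II, 0.64 for V and 1.05 for the share within 5 kb. The central share against peaks without a partner was 1.29 up to number 5000. Against combined sites it was 0.92 up to number 20000, 0.85 with all peaks (Fisher's exact test, p = 0.0021) and 0.95 beyond 5000 bp. Autosomes against X gave 1.05 up to number 20000. Beyond 2000 bp, chromosome II gave 1.06 and V 0.77, and beyond 5000 bp 1.004 and 0.73. Counting replicate 2 rows gave 1.10 for I, 1.18 for II, 1.34 for III, 0.84 for IV and 0.73 for V. Another member lay within 2 kb of 13.5% of members and within 10 kb of 28.0%. Leaving out a replicate leaves no members, since the rule needs both. No paired analysis was possible because only the ChIP replicates enter and the tests run over sites. The comparison of distances within 5 kb has no value beyond 5000 bp.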

Other observations

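Peaks beyond the number limit added further overlaps. Of the 5019 eligible peaks without a partner, 1061 (21.1%, exact 95% interval 20.0 to 22.3%) overlapped a replicate 2 peak numbered above 10000. The 110 sites given by the same rule on X had midpoints a median of 96.5 bp apart, and 50.9% were within 100 bp (41.2 to 60.6%), against 96 bp and 51.6% on the autosomes. Their Spearman coefficient between the numbers of both replicates was 0.054. The sites on X lay farther from combined sites, with a median distance of 46356 bp, where combined sites are sparser (8.07 per Mb against 26.5 on the autosomes). These values are descriptions with no test.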
